A study of Homo sapiens with 4 samples.

Results

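The miR-106b~25 cluster is a group of 3 miRNA hairpins, miR-106b, miR-93 and miR-25, that lie together in an intron of MCM7, the gene of a subunit of the replicative DNA helicase. Its mature miRNAs were taken from the count table by name, with both arms of each hairpin, which gave 6 of the 826 listed miRNAs. All 6 passed the filter on low counts and were among the 401 miRNAs tested. Small RNA was sequenced from H661, an established line of human large cell lung carcinoma, in 4 libraries. The cells received entinostat, an inhibitor of class I histone deacetylases, at 2.5 µM for 8 h in 2 libraries, or the solvent dimethyl sulfoxide (DMSO) in the other 2. Both groups grew in RPMI1640 with fetal bovine serum, and no label says whether the replicates of a treatment came from separate cultures, so the p-values speak of library-to-library spread alone, and that spread may be technical.

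A miRNA hairpin is cut out of a longer transcript and gives a 5p and a 3p strand, of which 1 is usually kept by Argonaute as the guide while the other, the passenger, is mostly degraded. The guide finds its target mRNAs mainly through its seed, the bases at positions 2 to 8 from its 5′ end, so miRNAs with the same seed can share targets. The cluster is a paralog of the oncogenic miR-17~92 cluster and is transcribed with MCM7, which E2F factors switch on in dividing cells. In human cancer cells miR-106b-5p and miR-93-5p are known to repress the cell cycle inhibitor CDKN1A, and miR-25-3p the pro-apoptotic BCL2L11.

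On GRCh38 the hairpins run in the order miR-106b, miR-93, miR-25 along the minus strand of chromosome 7, in the direction of MCM7 (GENCODE release 29). MIR106B lies at chr7:100093993-100094074, MIR93 at chr7:100093768-100093847 and MIR25 at chr7:100093560-100093643. Gaps of 145 bases, between MIR106B and MIR93, and 124 bases, between MIR93 and MIR25, separate them, and the whole group spans 515 bases. All 3 are intronic and on the strand of the host in each of the 8 annotated MCM7 transcripts that span them, 4 of them protein-coding, and none of the 8 has an exon that overlaps a hairpin.

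The mature sequences (RefSeq, GRCh38.p14) are shown with the seed in capitals, because the seed decides which members, and which miRNAs of other loci, belong together.
hsa-miR-106b-5p (chr7:100094043-100094063, minus strand): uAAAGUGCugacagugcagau
hsa-miR-106b-3p (chr7:100094002-100094023, minus strand): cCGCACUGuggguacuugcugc
hsa-miR-93-5p (chr7:100093815-100093837, minus strand): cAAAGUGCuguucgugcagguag
hsa-miR-93-3p (chr7:100093777-100093798, minus strand): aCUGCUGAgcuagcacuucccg
hsa-miR-25-5p (chr7:100093610-100093630, minus strand): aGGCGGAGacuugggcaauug
hsa-miR-25-3p (chr7:100093571-100093592, minus strand): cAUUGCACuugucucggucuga

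The 5p arms of miR-106b and miR-93 share the seed AAAGUGC and have 16 of 21 bases in common when aligned from the 5′ end. The seed of miR-25-3p, AUUGCAC, is a different one. Among the 729 of 826 names in the count table that matched the RefSeq sequences, no other miRNA had the seed of miR-106b-3p, miR-93-3p or miR-25-5p.

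The libraries held from 547875 to 938559 miRNA counts. Levels are given in CPM, a miRNA's counts per 1000000 of its library, scaled between libraries by TMM (trimmed mean of M-values). Fold changes are entinostat over DMSO. With no spiked-in RNA in the scaling, these are levels relative to the other miRNAs. Neither the number of cells nor a change in miRNA per cell shared by all miRNAs would show in them. Of the fixed epithelial miRNA markers, 4 of 12 were in the table, with a summed level of 77.3 and 59.3 CPM in the entinostat libraries and 56.7 and 41.0 CPM in the DMSO libraries. The 2 of 9 listed blood markers summed to 193.3 and 241.2 CPM with entinostat and 231.2 and 220.9 CPM with DMSO, nearly all of it miR-486-5p, and the 3 of 9 listed markers of liver, muscle, neuron and placenta to 12.9 and 6.59 CPM with entinostat and 14.98 and 5.34 CPM with DMSO. The part of other cells in the results was not tested.

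The cluster was well expressed and each hairpin was read mainly from 1 arm, which was not the same arm in all 3. The 6 miRNAs together held 1.90% of the counts (exact Clopper-Pearson 95% interval 1.87 to 1.94%) and 1.97% (1.94 to 1.999%) in the entinostat libraries, against 1.80% (1.77 to 1.82%) and 1.88% (1.84 to 1.91%) in the DMSO libraries. The intervals cover counting error only. The mean share was 1.93 ± 0.0456% with entinostat and 1.84 ± 0.0564% with DMSO (SD, n = 2 each; two-sided exact permutation p = 0.33). With 2 libraries against 2 this test cannot go below 0.33. The entinostat libraries were both above the DMSO libraries, by a difference of 0.0997 percentage points between means, which was 0.0598 with DMSO replicate 1 left out and 0.140 with DMSO replicate 2 left out. With the 5 most abundant miRNAs taken out of the denominator it was 0.175.

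The 3 abundant strands were miR-25-3p, miR-106b-3p and miR-93-5p, at ranks 26, 34 and 36 of the 826 miRNAs by mean level over the 4 libraries. All 6 mature strands are 21 to 23 bases long, so their levels can be set side by side per molecule, but adapter ligation can favour some sequences over others. The mean level over the libraries was 6897 CPM for miR-25-3p, 6046 CPM for miR-106b-3p and 5223 CPM for miR-93-5p. The order of miR-25-3p and miR-106b-3p did not hold in every library: miR-25-3p was the higher in 3 of 4, with ratios from 0.936 to 1.27. Its neighbour miR-106b-3p was above miR-93-5p in 4 of 4, by 1.03 to 1.30 times.

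The minor strands stood far below, at 363.1 CPM for miR-25-5p, 244.9 CPM for miR-93-3p and 102.4 CPM for miR-106b-5p, ranks 153, 178 and 234. How reads shared by near-identical miRNAs were assigned is not given in the sources used here. The level of miR-106b-5p, its place as the minor strand and its share of the hairpin are therefore uncertain, since reads of it could have been counted under a relative with the same seed. The 4 miRNAs of other loci with its seed summed to 3164 and 3280 CPM with entinostat and 2843 and 2971 CPM with DMSO. Each sum was below the level of miR-106b-3p in the same library. These sums leave out miR-93-5p, which also has the seed, and the origin of the reads was not tested. In each of the 4 libraries miR-93-5p, the least abundant of the major strands, exceeded miR-25-5p by 10.9 to 18.6 times, miR-25-5p exceeded miR-93-3p by 1.22 to 2.04 times, and miR-93-3p exceeded miR-106b-5p by 2.03 to 3.03 times. This order was the same in all 4 libraries, whatever the treatment.

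**Figure D1:**
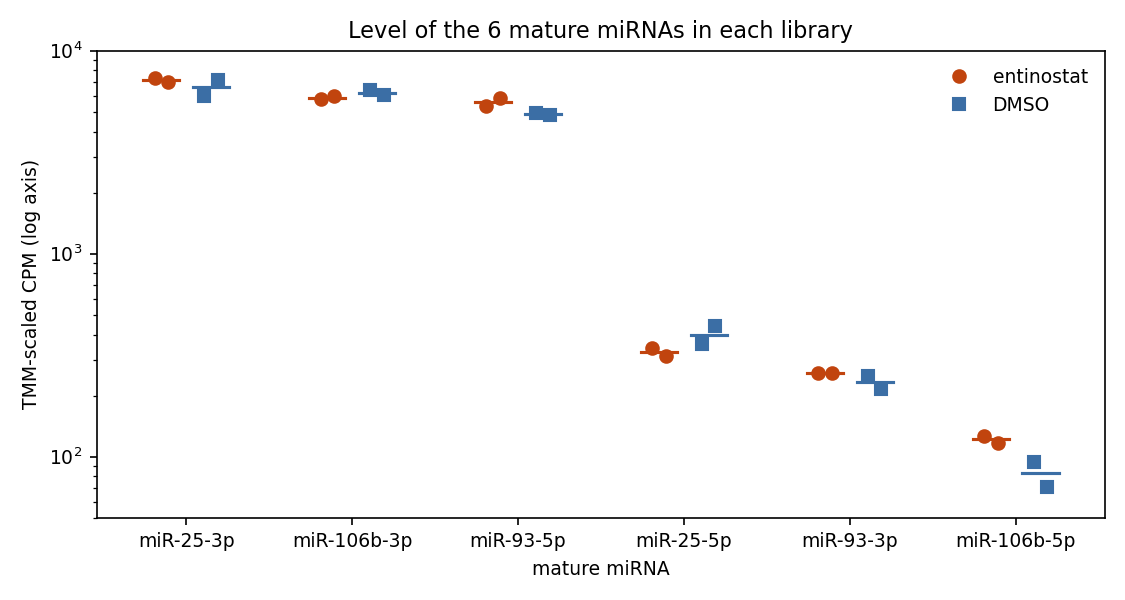
TMM-scaled CPM (log axis) of the 6 mature miRNAs of the cluster, from the highest mean to the lowest. Each point is a library, each horizontal line the mean of the 2 libraries of a treatment. The 3 major strands lie between 4808 and 7361 CPM and the 3 minor strands between 71.3 and 440.0 CPM.

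Both arms of a hairpin added together, the 3 hairpins of the cluster were close in level. The miR-106b hairpin summed to 5905 and 6099 CPM in the entinostat libraries and to 6498 and 6092 CPM in the DMSO libraries. The miR-93 hairpin summed to 5579 and 6081 CPM with entinostat and to 5187 and 5023 CPM with DMSO. The miR-25 hairpin summed to 7703 and 7348 CPM with entinostat and to 6350 and 7638 CPM with DMSO. The treatments overlapped for the miR-106b and miR-25 hairpins and did not for miR-93. Of the 401 single miRNAs tested, 40.6% had treatments likewise fully apart, and no such share was computed for hairpin sums. The log2 differences between treatments were -0.07 for miR-106b, 0.11 for miR-25 and 0.19 for miR-93 (exact permutation p = 0.667, 0.667 and 0.33).

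No member of the cluster passed the threshold in the comparison of entinostat with DMSO. At a Benjamini-Hochberg adjusted p under 0.05, the quasi-likelihood test in edgeR called 0 of the 6 members and 0% of all 401 miRNAs. DESeq2 and limma-voom also called 0 miRNAs. At an unadjusted p under 0.05, limma-voom found 31 of 401 miRNAs, and DESeq2, run on all 826 without the low-count filter, found 11. At the same threshold edgeR found 27 miRNAs, 6.73% of the 401 tested (12 higher, 2.99%, and 15 lower, 3.74%). Among the 12 higher were miR-106b-5p and miR-93-5p, the pair of the cluster that share a seed, and no member was among the 15 lower. In 5 of the 6 members the treatments' libraries were fully apart, 3 higher and 2 lower with entinostat, and in the whole table this was so for 40.6% of the miRNAs tested, 20.7% higher and 20% lower. The log2 fold change was above 0 for 4 members and below 0 for 2, with a median of 0.13, where 208 of the 401 tested miRNAs were above 0 and the median was 0.00466. Scaling by upper quartile factors moved that median of all tested miRNAs to 0.12.

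The farthest of the members from its DMSO level was hsa-miR-106b-5p, the strand with the seed of the miR-17 family. It had 69 and 89 counts in the entinostat libraries and 88 and 40 counts in the DMSO libraries, with totals that differed between libraries. Its level was 127.0 and 117.3 CPM with entinostat, against 94.2 and 71.3 CPM with DMSO. Both entinostat libraries thus lay above both DMSO libraries, and the DMSO libraries were the farther apart. Counting error was large at this depth: before TMM scaling, the exact 95% interval was 98.0 to 159.4 and 94.9 to 145.4 CPM with entinostat and 75.2 to 115.5 and 50.9 to 97.0 CPM with DMSO. The fold was 1.44 with a 95% interval of 1.04 to 1.99 (on the log2 scale 0.53 with an SE of 0.20; edgeR adjusted p = 0.595, unadjusted p = 0.0310). This miRNA ranked 18 of 401 by p and 21 of 401 from the highest by fold change. Leaving out DMSO replicate 1 gave a log2 fold change of 0.76 and leaving out DMSO replicate 2 gave 0.34, so DMSO replicate 2, with 40 counts, had much weight in it.

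Its partner strand hsa-miR-106b-3p, which held nearly all counts of the hairpin, lay slightly below DMSO. It was at 5778 and 5982 CPM in the entinostat libraries, against 6403 and 6021 CPM in the DMSO libraries. The groups did not overlap, but the gap between entinostat replicate 2 and DMSO replicate 2 was smaller than the spread within either treatment. The fold was 0.946 (95% interval 0.833 to 1.07; -0.08 on the log2 scale with an SE of 0.08; edgeR adjusted p = 0.788). With upper quartile factors the sign turned, to a log2 fold change of 0.0345.

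The major strand hsa-miR-93-5p, a repressor of CDKN1A with the seed of miR-106b-5p, was the most precisely measured of the members that lay above DMSO. It was at 5321 and 5824 CPM with entinostat, against 4937 and 4808 CPM with DMSO, a mean of 5573 ± 355.4 and 4872 ± 91.6 CPM (SD, n = 2 each). Both entinostat libraries were higher than both DMSO libraries. The fold was 1.14 with a 95% interval of 1.00 to 1.31 (on the log2 scale 0.19 with an SE of 0.08; edgeR adjusted p = 0.595, unadjusted p = 0.0483). Leaving out entinostat replicate 2 gave a log2 fold change of 0.12 and leaving out entinostat replicate 1 gave 0.24.

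The minor strand hsa-miR-93-3p was at 257.7 and 257.1 CPM with entinostat, against 249.4 and 215.5 CPM with DMSO. The groups did not overlap, yet DMSO replicate 1 was close to the entinostat level. The fold was 1.10 (95% interval 0.880 to 1.37; edgeR adjusted p = 0.796), and the log2 fold change of 0.14 fell to 0.0175 without DMSO replicate 2.

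The minor strand hsa-miR-25-5p was the member farthest below DMSO. It had 342.4 and 312.4 CPM in the entinostat libraries, against 357.5 and 440.0 CPM in the DMSO libraries. Both entinostat libraries were lower than both DMSO libraries, and entinostat replicate 1 was close to DMSO replicate 1. The fold was 0.826 (95% interval 0.657 to 1.04; -0.28 on the log2 scale with an SE of 0.14; edgeR adjusted p = 0.595). Leaving out DMSO replicate 1 gave a log2 fold change of -0.44 and leaving out DMSO replicate 2 gave -0.16.

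The major strand hsa-miR-25-3p, which represses BCL2L11, was the member whose groups overlapped. It was at 7361 and 7035 CPM with entinostat, against 5992 and 7198 CPM with DMSO. DMSO replicate 1 was the low library, and DMSO replicate 2 lay between the entinostat libraries. The fold was 1.09 (95% interval 0.931 to 1.28; 0.13 on the log2 scale with an SE of 0.10; edgeR adjusted p = 0.693), and the log2 fold change was -0.0125 without DMSO replicate 1.

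A 1.5-fold change in either direction lay outside the 95% interval of 4 members, taken singly. The interval of miR-106b-5p held such a rise and that of miR-25-5p such a fall. The 95% intervals of the 3 major strands were the narrowest, since each had 2699 or more counts per library.

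The ratio of the counts of a hairpin's arms does not depend on the scaling between libraries, because both arms are counted in the same library. The hairpins of miR-106b and miR-25, whose 5p share differed most between the treatments, are shown with the mature arms in capitals, 5p first (RefSeq, GRCh38.p14, minus strand).
MIR106B (chr7:100093993-100094074): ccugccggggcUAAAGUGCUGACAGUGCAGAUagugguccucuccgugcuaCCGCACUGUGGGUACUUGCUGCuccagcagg
MIR25 (chr7:100093560-100093643): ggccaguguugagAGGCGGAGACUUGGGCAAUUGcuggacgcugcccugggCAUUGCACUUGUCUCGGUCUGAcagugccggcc

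In the miR-106b hairpin the 5p arm was 2.15% (exact 95% interval 1.68 to 2.71%) and 1.92% (1.55 to 2.36%) of the counts in the entinostat libraries, against 1.45% (1.16 to 1.78%) and 1.17% (0.837 to 1.59%) in the DMSO libraries. The 5p share was higher in both entinostat libraries, and the counting intervals of the treatments overlapped in part. Over the whole table, the arm balance was fully apart between the treatments in 31 of 92 hairpins with both arms tested, 33.7%, and in the cluster in 2 of 3, miR-106b and miR-25. Because the assignment of reads between miR-106b-5p and its relatives is not known, the share itself, and any change in it, is uncertain. The mean share was 2.04 ± 0.161% with entinostat and 1.31 ± 0.198% with DMSO (SD, n = 2 each). The log2 ratio of 5p to 3p was 0.65 higher with entinostat (exact permutation p = 0.33; 0.416 with Benjamini-Hochberg adjustment over 5 ratios).

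In the miR-25 hairpin the 5p arm was 4.44% (3.84 to 5.11%) and 4.25% (3.74 to 4.82%) of the counts with entinostat, against 5.63% (5.06 to 6.25%) and 5.76% (5.08 to 6.50%) with DMSO. The counting interval of entinostat replicate 1 overlapped those of both DMSO libraries, and that of entinostat replicate 2 did not. This was the closest agreement within treatments of the 3 hairpins: the mean share was 4.35 ± 0.136% with entinostat and 5.69 ± 0.0924% with DMSO (SD, n = 2 each). These SDs were small beside the counting intervals, so they do not measure the precision of the shares. The log2 ratio of 5p to 3p was lower with entinostat, with a difference of -0.41 (exact permutation p = 0.33; 0.416 with Benjamini-Hochberg adjustment over 5 ratios).

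In the miR-93 hairpin the 5p arm was the major one, at 95.4% and 95.8% of the counts with entinostat, against 95.2% and 95.7% with DMSO. The libraries overlapped, and the log2 ratio of 3p to 5p differed by -0.0416 between entinostat and DMSO (exact permutation p = 0.667).

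**Figure D2:**
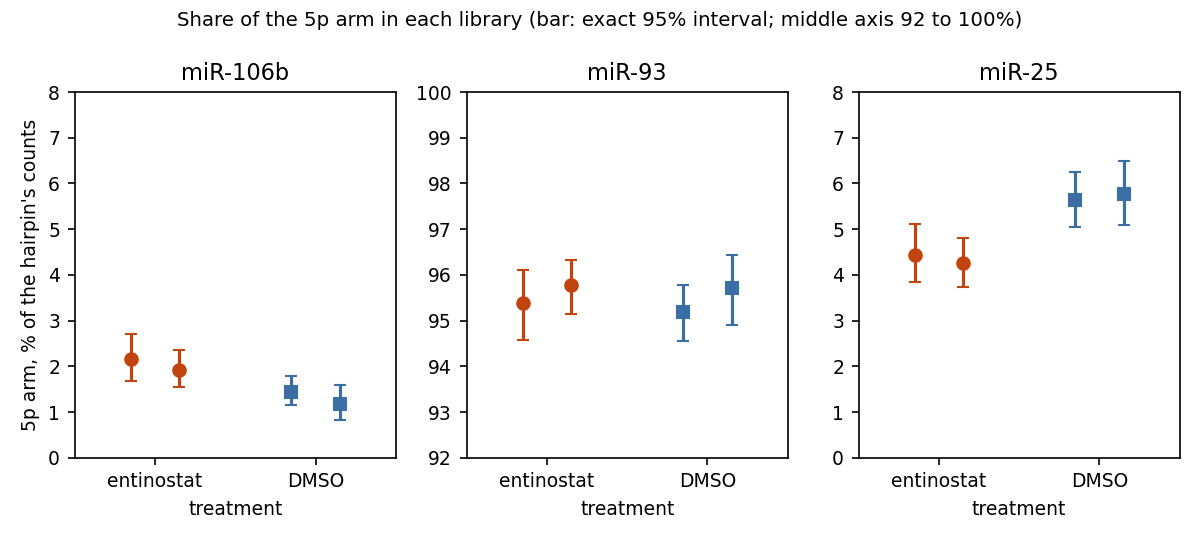
Share of the 5p arm in the counts of each hairpin, in percent, for each library (points) with exact Clopper-Pearson 95% intervals (bars). The miR-106b share is higher and the miR-25 share lower in both entinostat libraries, where 33.7% of 92 hairpins were likewise fully apart, and the miR-93 axis runs from 92 to 100%.

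The arm balance was also tested across the whole table, in the 92 hairpins with both arms tested, with the exon-usage test of edgeR (diffSpliceDGE) applied to arms. This test was added after the data were seen. It called 1 of 92 hairpins, 1.09%, at an adjusted p under 0.05, and that hairpin, let-7b, is outside the cluster. At an unadjusted p under 0.05 it gave 9 hairpins, 9.78%. The hairpins of miR-106b and miR-25 ranked 4 and 5 of the 92 by p. The change given here is the edgeR log2 fold change of the 5p arm minus that of the 3p arm. It therefore differs somewhat from the change in the ratio of counts, 0.65 for miR-106b and -0.41 for miR-25. For miR-106b the change of 5p against 3p was 0.61 on the log2 scale (unadjusted p = 0.00778, edgeR adjusted p = 0.179). For miR-25 it was -0.40 (unadjusted p = 0.0123, edgeR adjusted p = 0.227), and for miR-93 it was 0.0585 (edgeR adjusted p = 0.984). The median size of the change over the 92 hairpins was 0.25. Unlike the ratio of counts, the edgeR change and its p depend somewhat on the scaling. With upper quartile factors the change was 0.617 for miR-106b and -0.401 for miR-25 (edgeR adjusted p = 0.222 and 0.352). The 5p arm of miR-106b and that of miR-25 thus lay on opposite sides of 0 relative to their 3p arms, and neither shift passed the threshold.

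**Figure D3:**
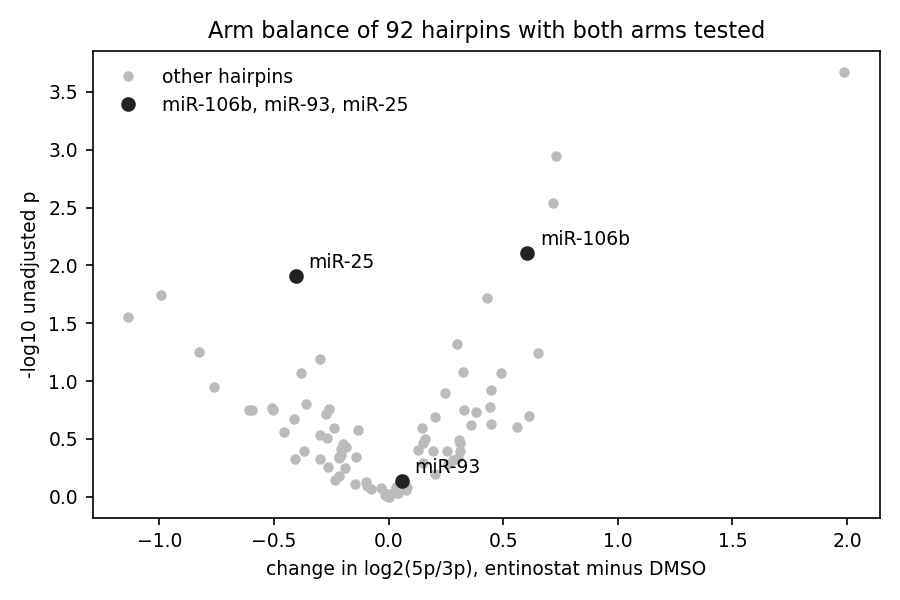
Change of 5p against 3p for 92 hairpins (horizontal axis) against the -log10 of the unadjusted p of the arm test (vertical axis). The change is the edgeR log2 fold change of the 5p arm minus that of the 3p arm, entinostat over DMSO. The miR-106b hairpin lies at 0.61, miR-25 at -0.40 and miR-93 at 0.0585.

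Between hairpins, the ratio of miR-106b-5p to miR-93-5p, which share a seed and a host intron, was 2.39% and 2.01% in the entinostat libraries, against 1.91% and 1.48% in the DMSO libraries. The difference in log2 ratio was 0.38, with the entinostat libraries above the DMSO libraries (exact permutation p = 0.33; adjusted 0.416). It was 0.20 with DMSO replicate 2 left out and 0.57 with DMSO replicate 1 left out. The ratio of miR-25-5p to miR-93-5p was 6.43% and 5.36% with entinostat, against 7.24% and 9.15% with DMSO. The difference in log2 ratio was -0.47 (exact permutation p = 0.33; adjusted 0.416), or -0.30 without DMSO replicate 2 and -0.64 without DMSO replicate 1.

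The seed AAAGUGC was carried by 4 further miRNAs of the table, all from the paralogous clusters on chromosome 13 and chromosome X. They are shown because they differ from miR-106b-5p and miR-93-5p by few bases, so the level of each is uncertain for the reason given for miR-106b-5p.
miR-17-5p (chr13:91350618-91350640, plus strand): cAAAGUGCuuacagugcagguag
miR-20a-5p (chr13:91351072-91351094, plus strand): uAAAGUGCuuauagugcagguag
miR-106a-5p (chrX:134170244-134170266, minus strand): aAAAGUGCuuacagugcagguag
miR-20b-5p (chrX:134169850-134169872, minus strand): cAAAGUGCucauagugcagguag

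Aligned from the 5′ end, miR-106b-5p has 18 of 21 bases in common with miR-17-5p, with miR-20a-5p and with miR-106a-5p, and 17 of 21 with miR-20b-5p. The 6 miRNAs with this seed summed to 8612 and 9221 CPM in the entinostat libraries, against 7874 and 7850 CPM in the DMSO libraries. Most of it was miR-93-5p, with 61.8% and 63.2% of the family's counts with entinostat and 62.7% and 61.2% with DMSO. The share of miR-106b-5p was 1.47% and 1.27% with entinostat, against 1.20% and 0.908% with DMSO. By these counts, the cluster's part in the family was carried by miR-93-5p in every library. The level and share of miR-93-5p carry the same uncertainty over read assignment. It has 20 of 23 bases in common with miR-20b-5p, 19 of 23 with miR-17-5p and with miR-20a-5p, and 18 of 23 with miR-106a-5p.

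The 4 relatives were all above 0 in log2 fold change, with a median of 0.16, and 0 of them passed the threshold in either direction. The level of miR-17-5p was 1439 ± 40.5 CPM with entinostat and 1304 ± 67.5 CPM with DMSO (SD, n = 2 each), a log2 fold change of 0.14 (95% interval -0.07 to 0.36; edgeR adjusted p = 0.640). The log2 fold change was 0.17 for miR-20b-5p, 0.19 for miR-106a-5p and 0.0829 for miR-20a-5p (edgeR adjusted p = 0.635, 0.635 and 0.861). Their libraries overlapped between treatments for miR-20a-5p and did not for the other 3. Of all 401 tested miRNAs, 40.6% were likewise fully apart. As shares of the 401, 20.7% were on the higher side and 20% on the lower side.

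The seed of miR-25-3p was carried by 4 further miRNAs, of which the abundant miR-92a-3p and miR-363-3p belong to the paralogous clusters and miR-92b-3p to a separate locus.
miR-92a-3p (2 loci, 1 at chr13:91351361-91351382, plus strand): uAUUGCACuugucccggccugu
miR-92b-3p (chr1:155195237-155195258, plus strand): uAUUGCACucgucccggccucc
miR-363-3p (chrX:134169382-134169403, minus strand): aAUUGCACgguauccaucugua

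In this family miR-25-3p was a minor part, with 14.1% and 13.7% of the counts in the entinostat libraries, against 11.1% and 14.0% in the DMSO libraries. The family summed to 52219 and 51370 CPM with entinostat, against 54152 and 51533 CPM with DMSO, and miR-92a-3p alone had a mean of 28143 CPM over the 4 libraries. The groups overlapped in both measures. From the 5′ end, miR-25-3p has 18 of 22 bases in common with miR-92a-3p, 16 of 22 with miR-92b-3p and 9 of 22 with miR-363-3p. How reads were assigned between these miRNAs is not known, so the level and share of miR-25-3p are uncertain too. Of the 4 relatives, 3 were tested and 0 passed in either direction. Their log2 fold changes were -0.07 for miR-92a-3p, -0.0351 for miR-92b-3p and 0.00431 for miR-363-3p (edgeR adjusted p = 0.796, 0.925 and 0.990). The fourth, miR-32-5p, had 2 and 4 counts with entinostat and 6 and 4 counts with DMSO, too few for testing.

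**Figure D4:**
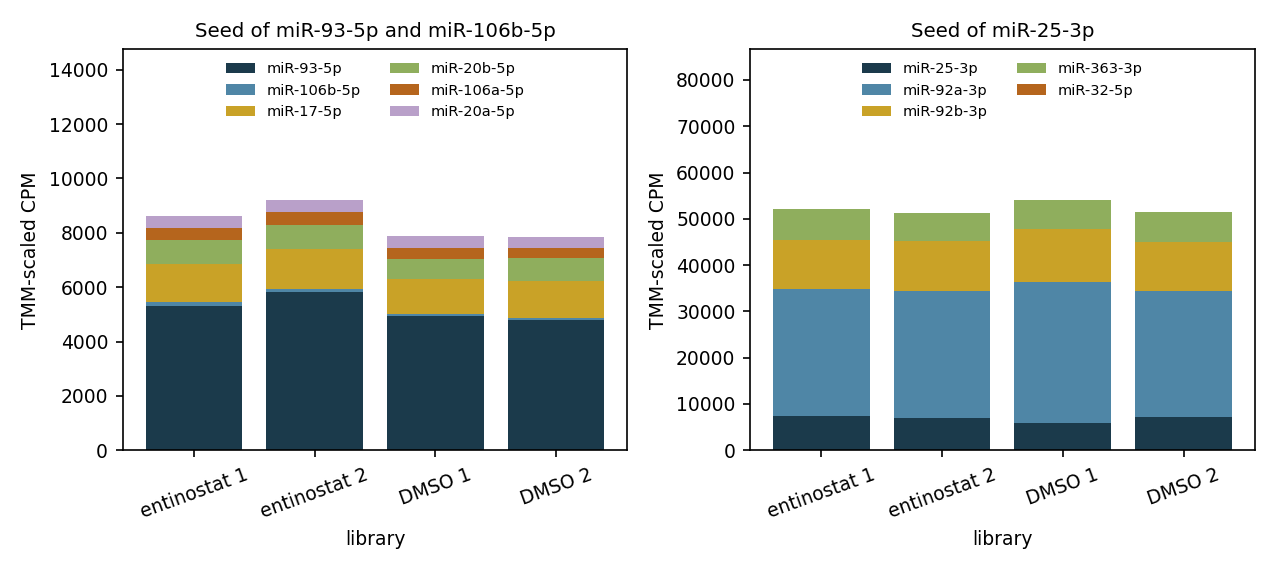
TMM-scaled CPM, stacked, of the miRNAs with the seed of miR-93-5p and miR-106b-5p (left) and with the seed of miR-25-3p (right) in each library. On the left miR-93-5p makes up 61.2 to 63.2% of each bar, and on the right miR-25-3p makes up 11.1 to 14.1%.

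**Figure D5:**
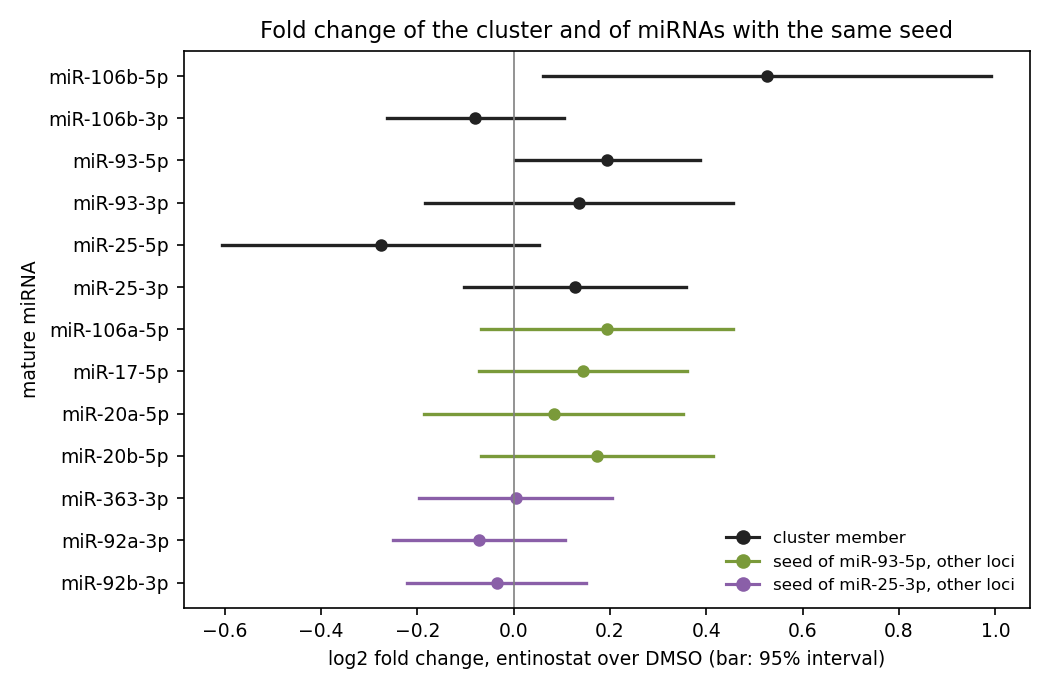
Log2 fold change, entinostat over DMSO, with 95% intervals from the edgeR fit, for the 6 cluster members and the 7 tested miRNAs of other loci with a seed of miR-93-5p or of miR-25-3p. The interval of miR-106b-5p is the widest, from 0.06 to 0.99.

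In the paralogous clusters, named after miR-17 and miR-106a, 17 of the 22 strands listed were in the table, 10 were tested and 0 passed the threshold in either direction. At an unadjusted p under 0.05 in edgeR, 0 were higher and 1 was lower, against 2.99% higher and 3.74% lower of all 401 tested. Their log2 fold changes were above 0 in 7 and below 0 in 3, with a median of 0.11. The most abundant were miR-92a-3p and miR-363-3p, given above. Of the miRNAs linked to E2F factors in human cells outside these clusters (strands of let-7a, let-7d, let-7i, miR-15b, miR-16 and miR-449), 10 of 12 strands were in the table, 9 were tested and 0 passed. At an unadjusted p under 0.05 in edgeR, 1 of these strands was higher and 0 were lower. Their log2 fold changes were above 0 in 4 and below 0 in 5, with a median of -0.07. The most abundant were let-7a-5p, at 5052 CPM over the libraries with a log2 fold change of 0.0117, and miR-15b-5p, from an intron of the condensin gene SMC4, at 1049 CPM with a log2 fold change of 0.22 (edgeR adjusted p = 0.982 and 0.595). Over the whole table that median was 0.00466.

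Over the 4 libraries, the profiles most like that of miR-106b-5p, among the 231 other tested miRNAs of 100 CPM or more, were those of miR-374a-5p, miR-548am-3p and miR-148a-5p. The measure was the root mean square distance between log2 levels, each centred on its own mean, and it was 0.177, 0.188 and 0.205, against a median of 0.336 over the 231. For miR-93-5p the nearest were miR-345-5p, miR-1269b and miR-30c-2-3p, at 0.0125, 0.0176 and 0.0243, against a median of 0.147. In all of these 6 miRNAs both entinostat libraries were above both DMSO libraries, as the choice by likeness brings about. The same choice places their distances below the median, so the distances are no test of likeness. For miR-345-5p the counting SD alone was 7.2% of its level in either treatment, so its closeness to miR-93-5p is finer than its counts can resolve.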

How the data were processed

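Small RNA was sequenced in 4 libraries of H661 cells, grouped by the sample titles. Per the labels' protocols, cells were lysed in TRIzol and total RNA went into New England Biolabs small RNA libraries, a method that ligates adapters and amplifies by PCR. No molecular identifier is named. The submitters' processing notes name bcl2fastq 2.18. An aligner, counter, miRNA annotation or genome build is not given in the sources used here. The deposited table of counts has 1 whole number per mature miRNA and library. The deposited CPM equal count over column total per 1000000, within 0.0001, in 100% of values.

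Counts were tested in edgeR 4.0.16 (R 4.3.3) by quasi-likelihood on all 401 rows kept by filterByExpr (minimum count 10, minimum total 15), with TMM scaling and treatment as the only term, and a call needed a p under 0.05 after Benjamini-Hochberg adjustment. The common dispersion was 0.00648. Intervals (95%) come from the fitted standard error. The tests were checked on simulated data with known changes, with every miRNA drawn at the common dispersion, unlike real data. With 20 miRNAs changed, 52.4% of 1.5-fold and 76.8% of 2-fold changes were found, and with 200 changed 67.2% and 91%. Hairpins with no simulated arm change had an unadjusted p under 0.05 in 5.64% and 8.29% of cases (20 and 200 changed). DESeq2 1.42.0 and limma 3.58.1 were alternatives. Ratios and shares were tested by exact permutation (SciPy 1.17.1). Sequences came from RefSeq. The members and lists were chosen with earlier results of these data known. Named miRNAs were all members, tested miRNAs of 100 CPM or more with a member's seed, the 2 most abundant tested miRNAs of each list and the 3 nearest profiles.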

Additional observations from a re-analysis of the deposited data

How the results depend on the processing

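The 6 members' log2 fold changes were recomputed under 17 alternatives, and none of the members was called in any. For miR-106b-5p, miR-93-5p, miR-93-3p and miR-25-5p the direction was the same in all 17. Without 1 library each, the log2 fold change ranged from 0.34 to 0.76 for miR-106b-5p, from 0.12 to 0.24 for miR-93-5p, from 0.0175 to 0.24 for miR-93-3p, from -0.44 to -0.16 for miR-25-5p, from -0.15 to -0.0464 for miR-106b-3p and from -0.0125 to 0.24 for miR-25-3p, whose sign turned without DMSO replicate 1. With upper quartile factors miR-106b-3p turned to 0.0345. These factors moved all tested miRNAs up by about 0.12, as the median shows, and the 12 higher and 15 lower miRNAs at an unadjusted p under 0.05 became 38 higher and 6 lower.

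The likelihood ratio test called 4 miRNAs, and leaving out 1 library gave from 0 to 5 calls, 5 without entinostat replicate 1. The cause was not tested. For the arm balance, the count of 1 called hairpin was 0 with no low-count filter, 0 with the crossed pairing and 0 to 2 without 1 library. The miR-93 arm change of 0.0585 was -0.0422 without DMSO replicate 1 and -0.00871 without entinostat replicate 2, a range of -0.0422 to 0.13 without 1 library. The difference in its log2 ratio of 3p to 5p, -0.0416, ranged from -0.13 to 0.0444, with 0.0253 without entinostat replicate 2. The arm changes of miR-106b and miR-25 had the same direction under each of these settings.

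No label says that a replicate number marks a shared culture or batch. With the replicate number as a block, 0 miRNAs were called, and the log2 fold change of miR-106b-5p was 0.56. The deviations of same-numbered libraries had a correlation of -0.136 over 237 miRNAs of 100 CPM or more, and the crossed pairing, added after seeing the data, also called 0. Depth limited the minor strands most, with 40 to 89 counts of miR-106b-5p per library.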
